A study of Mus musculus with 8 samples.

Results

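Connexins and pannexins are the proteins of the cell's large-pore channels, and 9 genes of these families were followed in notochord-derived cells (NDCs) of the mouse. The members were a list of gene symbols chosen with earlier results of these data known. Of these symbols, 7 are connexins (Gja1, Gja4, Gja5, Gjb2, Gjb5, Gjb6 and Gjc1) and 2 are pannexins (Panx1 and Panx3). All 9 were found among the 43346 gene identifiers of the count files, and all 9 passed the filter on low counts that left 15467 genes for testing. The mouse annotation holds 23 connexin and pannexin genes, and the other 14 are given as a group after the members.

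RNA was sequenced from 4 litters at embryonic day 12.5 (E12.5) and 4 litters at postnatal day 0 (P0), with the animals of a litter pooled into a sample. Both stages carried the same Shh-cre;ROSA:YFP alleles, in which Cre made under the control of Shh turns on yellow fluorescent protein (YFP) in Shh-expressing cells and all their descendants, so neither stage is a control of another genotype. At E12.5 the samples were whole notochords freed of neighboring tissue by dissection and put directly into TRIzol, and at P0 they were nucleus pulposus (NP) cells shaken out of opened thoracic and lumbar discs and sorted for YFP. Stage and method of isolation therefore cannot be told apart.

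Connexin proteins assemble in groups into hemichannels, and the hemichannels of neighboring cells dock to form gap junctions, through which ions and small molecules pass from cell to cell. Pannexins resemble them in shape but rarely dock, and mainly release ATP and other small molecules to the outside. The notochord and the young NP are known for large vacuolated cells that lie in close contact and are coupled by gap junctions.

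Reads counted on genes ranged from 4442775 to 7180221 per litter at E12.5 and from 6371842 to 8904050 at P0. Levels below are counts scaled to the size of the library (CPM) with the TMM adjustment, so that a level compares a gene between litters but not different genes, and 3 counts correspond to 0.337 to 0.675 CPM, a floor for counting error only. The labelled cell type was checked with 9 notochord markers, whose summed level was 1687 to 4007 CPM at E12.5 and 1969 to 6935 CPM at P0. The marker T was present in every litter, whereas Noto had at most 3 reads in any litter. Of the 8 markers tested, Shh and Foxa1 were lower at P0 (log2 fold changes of -7.14 and -2.23) and Krt19 and Cd24a higher (1.74 and 1.33), with Shh at 420 to 1348 CPM at E12.5 and 0.16 to 11.8 CPM at P0. Genes of other cell types were also present and differed between the stages. The summed erythroid list was 10140 to 49400 CPM at E12.5 and 363 to 1247 CPM at P0, the leukocyte list 42.0 to 84.3 and 204 to 2701 CPM, the neutrophil list 4.01 to 14.1 and 680 to 6654 CPM, and the osteoblast list 29.98 to 88.2 and 342 to 715 CPM. In such bulk samples, fewer cells of a type and less RNA per cell cannot be told apart.

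Of the 9 members, 7 differed between the stages at an adjusted p under 0.05. Of these, 3 were higher at P0 (Gja1, Gjb5 and Panx3) and 4 were lower (Gja4, Gja5, Gjb2 and Gjc1), while Gjb6 and Panx1 did not pass. Over all genes tested, 27.9% passed, 16.0% higher and 12.0% lower at P0. The members were chosen with earlier results of these data known, so no comparison with this share is drawn. Each of the 7 passed in every fit that left out a single litter. The ranges of the stages did not overlap for any of the 7. The share of all genes tested without such overlap is not given here, so this only describes these genes. The median log2 fold change of all genes tested was 0.04. The filter asks for about 1.54 CPM in 4 litters, a level that Gja4, Gja5 and Gjb2 reached in all 4 litters only at E12.5 and Gjb5 and Panx3 only at P0, so these 5 were tested because of the stage where they are high and their number is no measure of how often such genes change.

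**Figure D1:**
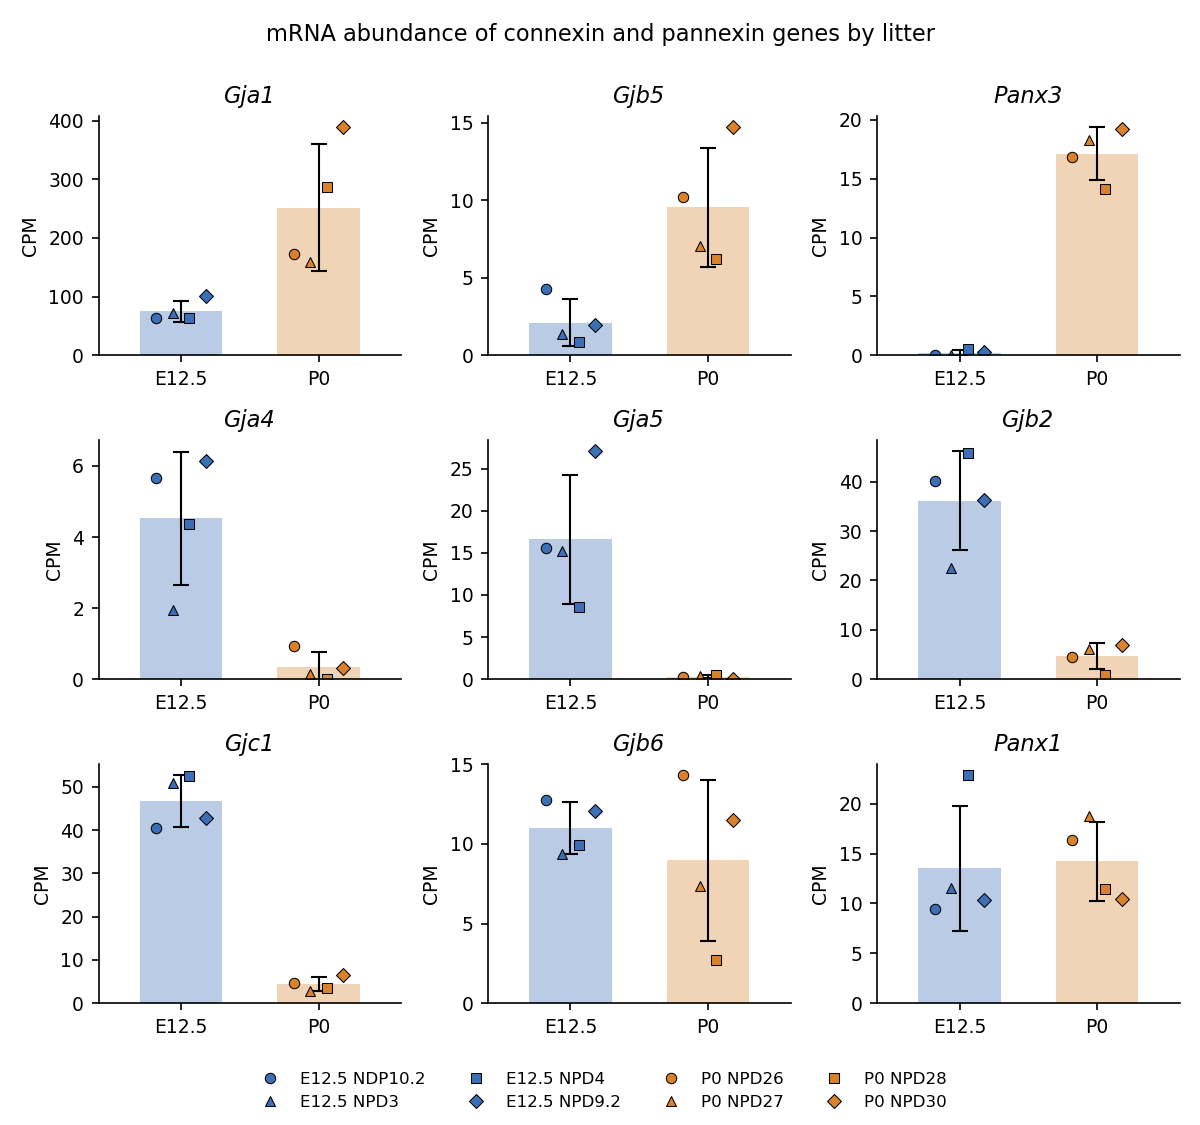
mRNA abundance of the 9 genes in CPM (y axis, linear, own scale per panel) at E12.5 and P0. Bars are means, error bars SD and symbols the 4 litters of a stage. All P0 litters lie above all E12.5 litters for Gja1, Gjb5 and Panx3, all lie below them for Gja4, Gja5, Gjb2 and Gjc1, and the stages overlap for Gjb6 and Panx1.

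Gja1 encodes connexin 43, the most widespread gap junction protein of the skeleton. It lies on chromosome 10 (chr10:56377330-56402513, GRCm38, plus strand). Its mRNA abundance was 63.5, 71.4, 63.0 and 102 CPM in the E12.5 litters NDP10.2, NPD3, NPD4 and NPD9.2. At P0 it was 172, 159, 287 and 388 CPM in the litters NPD26, NPD27, NPD28 and NPD30. Every P0 litter was above the highest E12.5 litter, and the P0 litters were spread more widely than those at E12.5. The mean rose from 74.9 ± 18.2 to 252 ± 108 CPM (SD, n = 4 at each stage), a log2 fold change of 1.75 with a standard error of 0.33 (adjusted p = 0.00302). At P0 the order of the litters in Gja1 was also their order in the summed notochord list, which was lowest in NPD27 at 1969 CPM and highest in NPD30 at 6935 CPM. Per 100 CPM of that list, Gja1 held 1.58 to 5.44 CPM at E12.5 and 5.15 to 8.06 CPM at P0, so that on this scale the stages overlapped. The make-up of the list differed between the stages, since Shh fell and Krt19 and Cd24a rose, so the ratio is not to a fixed quantity.

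Gjb5 encodes connexin 31.1, a beta connexin best known from skin and placenta. It is a short gene on chromosome 4 (chr4:127354809-127358181, minus strand). Its level was 4.25, 1.37, 0.85 and 1.97 CPM in the E12.5 litters, in the order given above, and 10.22, 7.07, 6.24 and 14.7 CPM in the P0 litters. The lowest P0 litter, NPD28, was above the highest E12.5 litter, NDP10.2, by the smallest margin among the 3 genes that rose. The mean rose from 2.11 ± 1.498 to 9.56 ± 3.84 CPM, with a log2 fold change of 2.21 and a standard error of 0.55 (adjusted p = 0.0122). Tested against a fold change of 2, Gjb5 did not pass (adjusted p = 0.0617). Gjb5 rose while the summed epidermal and epithelial list fell from 77.4 to 196 CPM at E12.5 to 13.2 to 24.1 CPM at P0, with 6 of its 8 genes significantly lower and 0 higher.

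Panx3 encodes a pannexin of maturing cartilage and bone. It lies on chromosome 9 (chr9:37659902-37669235, minus strand). The E12.5 litters held 0, 0, 4 and 1 reads of it, and the P0 litters 107, 127, 120 and 127 reads. These are 0, 0, 0.48 and 0.25 CPM at E12.5 and 16.8, 18.3, 14.1 and 19.3 CPM at P0. At E12.5 only NPD4, with 4 reads, was above the floor of 3 counts. Panx3 was thus close to undetected in the notochord and was even among the P0 litters, at 17.1 ± 2.24 CPM. The pooled reads of the 4 litters gave a level 73.6 times higher at P0, with an exact 95% interval of 31.3 to 228 that covers counting error only. The fitted log2 fold change was 6.17 with a standard error of 0.63 (adjusted p = 0.000162).

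Most tested markers of mineralizing tissue moved with Panx3. In the osteoblast list 5 of 6 tested genes rose and 0 fell. Dmp1 had 0 reads in all E12.5 litters and 7.7 to 16.3 CPM at P0. Bglap2 also had 0 reads at E12.5, but only 1, 3, 5 and 2 reads at P0. Bglap had 4, 9, 4 and 6 reads at P0, and neither Bglap gene passed the filter. In the hypertrophic cartilage list 2 of 3 tested genes rose, its sum going from 22.0 to 61.3 CPM at E12.5 to 187 to 308 CPM at P0. Ibsp, the bone sialoprotein gene, went from at most 0.39 CPM at E12.5 to 246 to 526 CPM at P0. Both lists were highest in NPD30, the litter with the most Panx3. The part of such cells in the Panx3 level was not tested.

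Gja5 encodes connexin 40 and Gja4 connexin 37, the alpha connexins known from the endothelium of arteries and, for connexin 40, from the atria of the heart. Gja5 lies on chromosome 3 (chr3:96904693-97077416, plus strand). It was at 15.6, 15.2, 8.58 and 27.1 CPM in the E12.5 litters. At P0 it had 2, 3, 4 and 0 reads, which are 0.31, 0.43, 0.47 and 0 CPM and lie at or near the floor. Gja5 was clearly present in all 4 notochord samples and barely detectable at P0. It had the largest decrease among the members, with a log2 fold change of -5.64 and a standard error of 0.65 (adjusted p = 0.000283), and the pooled reads were 47.2 times higher at E12.5 (95% counting interval 24.6 to 104). The gene shares 165 exonic bases with Gpr89 on the opposite strand. The strand setting of the counting is not given in the sources used here.

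Gja4, on chromosome 4 (chr4:127311421-127314039, minus strand), was a low gene throughout. It was at 5.66, 1.95, 4.35 and 6.15 CPM at E12.5, from 24, 10, 36 and 25 reads. It was at 0.94, 0.14, 0 and 0.30 CPM at P0, from 6, 1, 0 and 2 reads, so the highest P0 litter, NPD26, still lay below the lowest at E12.5. The log2 fold change was -3.69 with a standard error of 0.85 (adjusted p = 0.0081), and the pooled reads were 13.8 times higher at E12.5 (95% counting interval 6.97 to 31.1). Gja4 was the member whose call depended on the E12.5 litters: with NDP10.2 and NPD9.2 left out together its adjusted p was 0.0822. The summed endothelial list overlapped between the stages, at 97.6 to 197 CPM at E12.5 and 90.3 to 162 CPM at P0. Of its 9 genes 2 fell, Emcn by 1.76 and Egfl7 by 1.29 on the log2 scale, and 1 rose, the VEGF receptor gene Flt1, with a log2 fold change of 1.85. Flt1 went from 9.37 to 18.5 CPM at E12.5 to 25.2 to 92.3 CPM at P0 and so made up part of the overlap of the sums, and the median log2 fold change of the list was -0.64. The part of endothelial cells in the levels of Gja5 and Gja4 was not tested.

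Gjb2 encodes connexin 26 and Gjb6 connexin 30, the pair of beta connexins that support hearing in the cochlea. Gjb2 lies on chromosome 14 (chr14:57098600-57104702, minus strand). It was at 40.1, 22.4, 45.8 and 36.4 CPM in the E12.5 litters and at 4.56, 6.20, 0.94 and 6.82 CPM in the P0 litters. No P0 litter reached the lowest E12.5 value, and NPD28 was the lowest of all. The mean fell from 36.2 ± 9.95 to 4.63 ± 2.64 CPM, with a log2 fold change of -2.97 and a standard error of 0.51 (adjusted p = 0.00198). The epidermal and epithelial list, of tissue where connexin 26 is also made, fell with it. The neural crest and Schwann cell list was at 267 to 498 CPM at E12.5 and at 23.2 to 640 CPM at P0, lowest in NPD28, the litter with the least Gjb2. The part of such cells in the level of Gjb2 was not tested.

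Gjb6 is the neighbor of Gjb2 (chr14:57123303-57133611, minus strand), with 18.6 kb between the genes. It was at 12.7, 9.37, 9.91 and 12.1 CPM at E12.5 and at 14.3, 7.35, 2.71 and 11.5 CPM at P0. NPD26 was above all E12.5 litters, and NPD27 and NPD28 were below them. NPD28, lowest in both Gjb2 and Gjb6, also stood apart in the neutrophil list, at 6654 CPM against 680 to 921 CPM in the other P0 litters, and the part of this in its values was not tested. The means were 11.0 ± 1.63 and 8.97 ± 5.06 CPM, and the log2 fold change of -0.30 had a 95% interval of -1.30 to 0.70 (adjusted p = 0.669). The interval includes a decrease of more than 2-fold.

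Gjc1 encodes connexin 45, a gamma connexin of early embryonic heart, vessels and skeleton. It lies on chromosome 11 (chr11:102799579-102819700, minus strand). It was at 40.6, 50.9, 52.6 and 42.8 CPM at E12.5 and at 4.72, 2.88, 3.41 and 6.52 CPM at P0. The 4 notochord samples were close together and so were the 4 P0 samples. The mean fell from 46.7 ± 5.93 to 4.38 ± 1.62 CPM, a 10.7-fold lower level at P0, and its log2 fold change of -3.41 had the smallest standard error of the 9 members, 0.31, and the lowest adjusted p, 9.53e-05. Lists of paraxial tissues fell as well: 5 of 5 tested sclerotome genes were lower at P0, their list going from 137 to 195 CPM to 10.01 to 20.9 CPM, and 5 of 5 tested skeletal muscle genes, from 560 to 2327 CPM to 17.0 to 71.2 CPM. Whether these tissues held part of the Gjc1 reads at E12.5 was not tested.

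Panx1 encodes the pannexin found in most cell types, which releases ATP. It lies on chromosome 9 (chr9:15002128-15045478, minus strand). It was at 9.44, 11.5, 22.9 and 10.3 CPM at E12.5 and at 16.4, 18.8, 11.4 and 10.5 CPM at P0. Its highest litter was NPD4 at E12.5, and the P0 range lay within the E12.5 range. Of the other E12.5 litters, NDP10.2 and NPD9.2 were below all P0 litters. The means were 13.5 ± 6.27 and 14.2 ± 3.96 CPM. The log2 fold change of 0.06 had a 95% interval of -0.73 to 0.86 and an adjusted p of 0.918. Both bounds lie within a 2-fold change in the fit of all litters. With NPD4 left out, the log2 fold change was 0.44 with a standard error of 0.34 (adjusted p = 0.365). The summed neural tube list was at 962 CPM in NPD4 and at 128 to 262 CPM in the other E12.5 litters. The part of such cells in the Panx1 level was not tested.

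**Figure D2:**
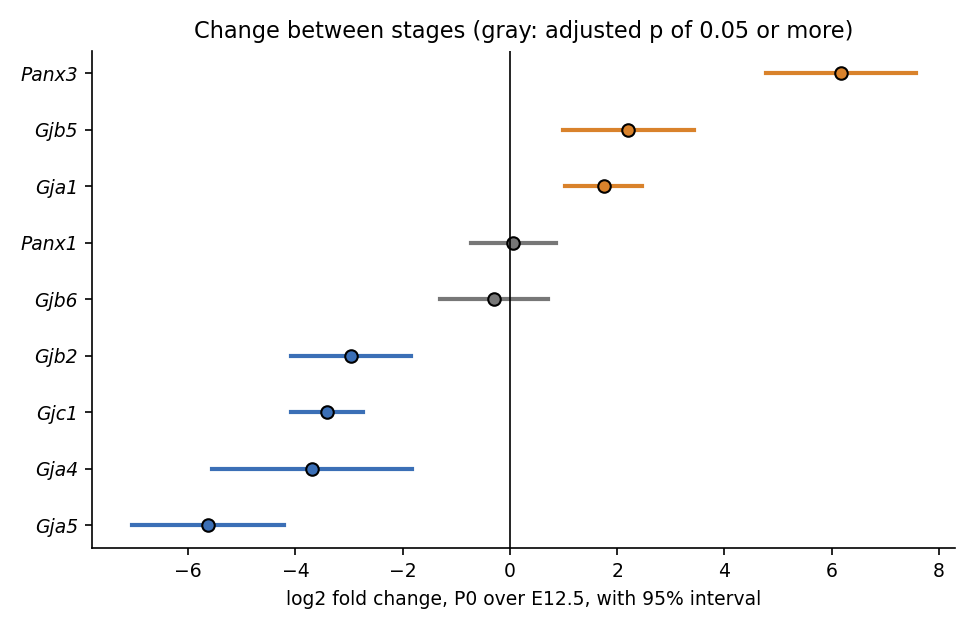
Log2 fold change of each member, P0 over E12.5 (x axis), with its 95% interval from the edgeR fit over all genes. Orange members were higher and blue members lower at P0 at an adjusted p under 0.05, and gray members did not pass. The values run from -5.64 for Gja5 to 6.17 for Panx3, and only the intervals of Gjb6 and Panx1 include 0.

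Neighboring genes of the connexin clusters differed in their fitted changes, as given above. Ratios within a litter are shown for 3 pairs that were chosen after their values were seen. The log2 ratio of Gjb2 to Gjb6 counts (with 0.5 added to each) went from 1.67 ± 0.39 at E12.5 to -1.02 ± 0.65 at P0, so that Gjb2 had more reads than Gjb6 in all notochord samples and fewer in all P0 samples. Gja4 and Gjb5 stand 40.8 kb apart on chromosome 4 and changed in opposite directions: the log2 ratio of Gja4 to Gjb5 went from 1.19 ± 0.91 to -5.10 ± 1.40. For the pannexins, the log2 ratio of Panx3 to Panx1 went from -5.86 ± 0.93 to 0.30 ± 0.41. These ratios are descriptions with no test, since the pairs were picked for moving apart, and the Gja4 and Panx3 ratios include litters with 0 reads.

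The bases before the start of transcription are shown for these differing neighbors, Gja4 and Gjb5, and for the connexins that led the signal per exon length at P0 and at E12.5, Gja1 and Gjb2. RefSeq gave a promoter for 7 of the 9 members (build GRCm38.p6). Gjc1 and Panx3 were not matched. Each line is the 250 bases upstream of the RefSeq start, 5′ to 3′ on the strand of the gene, and capitals mark matches on either strand to an AP-1 motif (TGANTCA), a GC box (GGGCGG) or a TATA box (TATAAA).
Gja1, chr10:56377050-56377299, plus strand: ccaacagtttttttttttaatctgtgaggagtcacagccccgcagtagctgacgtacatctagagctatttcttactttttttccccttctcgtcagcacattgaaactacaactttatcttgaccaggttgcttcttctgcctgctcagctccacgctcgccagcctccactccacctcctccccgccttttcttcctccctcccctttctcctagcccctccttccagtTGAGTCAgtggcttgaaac
Gjb2, chr14:57104703-57104952, minus strand: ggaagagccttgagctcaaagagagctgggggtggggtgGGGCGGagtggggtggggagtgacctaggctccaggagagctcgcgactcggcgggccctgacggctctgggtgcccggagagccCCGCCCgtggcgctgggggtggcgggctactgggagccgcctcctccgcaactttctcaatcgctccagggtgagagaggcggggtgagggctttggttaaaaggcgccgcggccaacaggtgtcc
Gja4, chr4:127314040-127314289, minus strand: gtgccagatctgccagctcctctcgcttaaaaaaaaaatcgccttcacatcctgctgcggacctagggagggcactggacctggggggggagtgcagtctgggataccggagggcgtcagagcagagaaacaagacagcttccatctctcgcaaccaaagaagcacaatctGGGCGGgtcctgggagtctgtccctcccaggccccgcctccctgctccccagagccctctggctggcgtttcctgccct
Gjb5, chr4:127358165-127358414, minus strand: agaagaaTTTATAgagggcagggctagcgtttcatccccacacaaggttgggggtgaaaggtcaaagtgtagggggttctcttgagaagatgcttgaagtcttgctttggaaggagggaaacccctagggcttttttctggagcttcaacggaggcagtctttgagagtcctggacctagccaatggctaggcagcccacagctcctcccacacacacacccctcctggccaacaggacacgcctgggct

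In these 250 bases, the Gja1 promoter held an AP-1 motif that begins at base -19 from the start, and no other matched member held it. AP-1 motifs stood in 6.75% of the 32851 promoters searched. GC boxes stood in 32.7% of all promoters and in 3 of the 7 matched members, all of them genes that fell: at -211 and -126 in Gjb2, at -79 in Gja4 and at -17 in Gja5. The Gjb5 match to a TATA box begins at -243 and is on the opposite strand, and 12.4% of promoters held such a match. The T-box motif searched (AGGTGTGA), the kind that the notochord factor T binds, stood in 1.12% of promoters and in 0 of the 7. These matches describe letters and were not tested as sites.

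The sum of the 7 connexins overlapped between the stages, but its make-up differed. Summed, they held 182, 173, 185 and 228 CPM in the E12.5 litters and 207, 183, 301 and 428 CPM in the P0 litters. Without Gja1 the sum was 119, 101, 122 and 126 CPM at E12.5 and 35.1, 24.1, 13.8 and 39.9 CPM at P0, with no overlap. Divided by the exon length of each gene, to allow comparison between genes, the share of Gja1 in the 7 was 17.2% ± 3.76 at E12.5 and 66.3% ± 12.7 at P0. The share of Gjb2 went from 34.9% ± 7.09 to 5.59% ± 3.65, that of Gjc1 from 22.4% ± 5.42 to 2.41% ± 0.42 and that of Gjb5 from 2.85% ± 1.91 to 15.3% ± 3.37. The share of Gjb6 was 9.70% ± 0.996 and 9.63% ± 5.84, that of Gja4 went from 6.12% ± 2.02 to 0.61% ± 0.79 and that of Gja5 from 6.77% ± 2.73 to 0.18% ± 0.13. These shares are descriptions and were not tested.

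Per length, the order of the connexins at E12.5 was Gjb2, Gjc1, Gja1, Gjb6, Gja5, Gja4 and Gjb5, with levels of 15.04 ± 4.14, 9.34 ± 1.19, 7.30 ± 1.78, 4.12 ± 0.61, 2.89 ± 1.34, 2.69 ± 1.11 and 1.22 ± 0.87 CPM per kb of exon. Of neighbors in this order, only Gja1 and Gjb6 had litters that did not overlap. At P0 the order was Gja1 (24.5 ± 10.5 CPM per kb), Gjb5 (5.55 ± 2.23), Gjb6 (3.36 ± 1.89), Gjb2 (1.93 ± 1.10), Gjc1 (0.88 ± 0.32), Gja4 (0.21 ± 0.25) and Gja5 (0.05 ± 0.04). Of these neighbors, Gja1 and Gjb5 did not overlap, nor did Gjc1 and Gja4, and the rest did. The place of Gja1 at E12.5 depended on the length used, since its exons span 10257 bases in union but a median of 3127 bases in coding transcripts. With the latter length Gjc1 (24.6 ± 3.12) and Gja1 (23.9 ± 5.83) led at E12.5, with Gjb2 at 15.04 ± 4.14, and the share of Gja1 was 30.7% at E12.5 and 83.8% at P0. Gja1 led at P0 on both lengths.

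**Figure D3:**
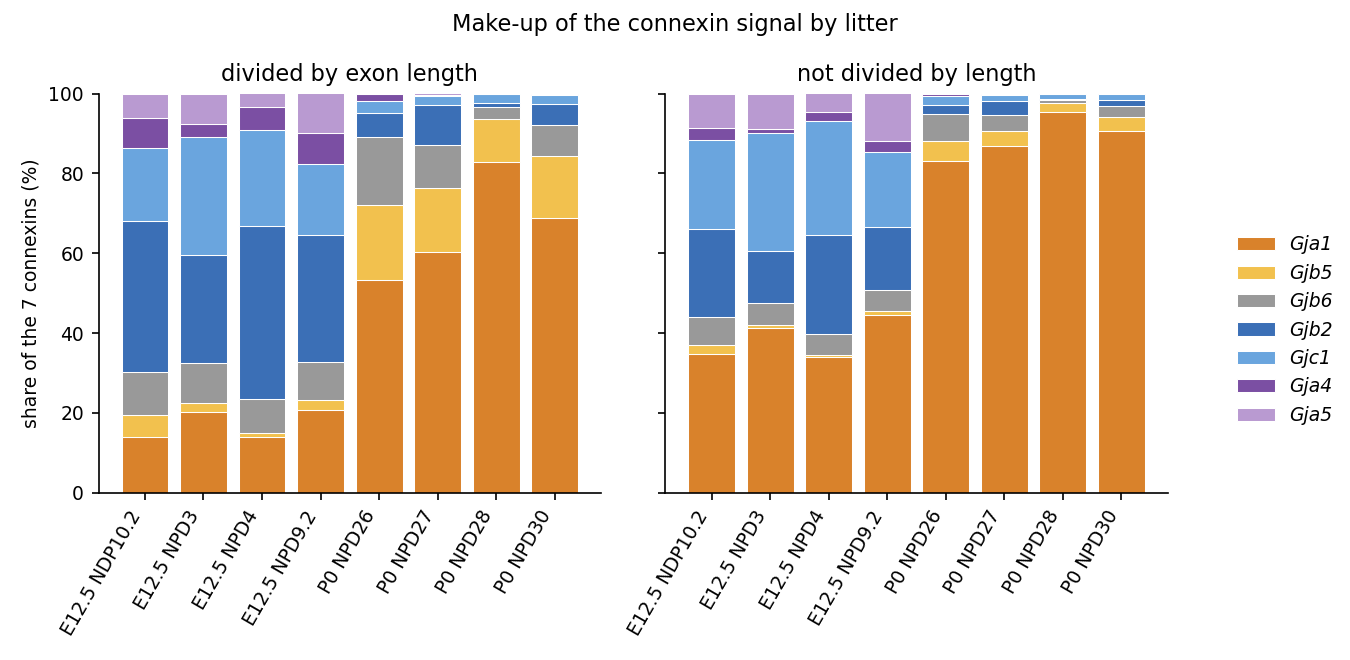
Share of each of the 7 connexin genes in their summed signal (y axis, percent) in each litter (x axis), on the left divided by exon length and on the right not divided. Gja1 holds 13.97% to 20.8% of the signal at E12.5 and 53.2% to 82.9% at P0 on the left, and 34.0% to 44.6% and 83.1% to 95.4% on the right.

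Of the other 14 connexin and pannexin genes, 3 passed the filter on low counts and 1 differed between the stages. Panx2, a pannexin known from neurons, was at 2.59, 0.20, 1.21 and 2.71 CPM at E12.5 and at 9.91, 6.35, 4.71 and 10.6 CPM at P0, higher in every P0 litter, with a log2 fold change of 2.26 and a standard error of 0.64 (adjusted p = 0.0217). Gjc3, a connexin of myelinating glia, did not pass (log2 fold change 0.21, adjusted p = 0.739). Gja10 and Gje1 had 0 reads in all 8 samples. The remaining 9 genes were too low to test. Among these, Gja6 had 65 reads at E12.5 and 11 at P0, and Gjd4 had 69 and 12.

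Genes that act on gap junctions moved in both directions. Of 25 partners, kinases and turnover factors of connexins, all of them tested, 5 were higher and 5 lower at P0, with a median log2 fold change of 0.02. Ccn3, a secreted matricellular protein that binds connexin 43, was at 3.77, 10.15, 3.75 and 4.92 CPM at E12.5 and 27.5, 54.7, 54.0 and 76.4 CPM at P0 (log2 fold change 3.23, standard error 0.42, adjusted p = 0.000492). Prkca, a protein kinase C that phosphorylates connexin 43, rose from 16.5 ± 2.93 to 100.5 ± 10.5 CPM (log2 fold change 2.61, standard error 0.23, adjusted p = 7.51e-05), and Prkcd, of the same kinase family, rose by 2.35 on the log2 scale (standard error 0.40, adjusted p = 0.00198). Prkcd was at 129 to 198 CPM in 3 P0 litters but at 50.0 CPM in NPD30, the litter with the lowest leukocyte list, whereas Prkca was at 108 CPM there. Dbn1, drebrin, an actin-binding protein that links connexin 43 to the cytoskeleton, fell from 155 ± 32.3 to 33.6 ± 7.96 CPM (log2 fold change -2.20, standard error 0.26, adjusted p = 0.00032). With the E12.5 litters NDP10.2 and NPD9.2 left out together, 4 of the 25 were higher and 1 lower.

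The receptors that respond to ATP and related nucleotides outside the cell were higher at P0 where they passed. Of 14 listed, 11 were tested, 6 rose and 0 fell, with a median log2 fold change of 1.76. P2ry6 rose by 5.19 (standard error 1.08, adjusted p = 0.00577), P2rx7 by 4.89 (standard error 0.94, adjusted p = 0.00416), P2ry13 by 4.59 (standard error 0.78, adjusted p = 0.00205) and P2ry12 by 3.64 on the log2 scale (standard error 0.99, adjusted p = 0.0207). All 4 are known from macrophages or microglia, and they varied among the P0 litters with the leukocyte and macrophage lists. P2ry6 was at 132, 174 and 47.7 CPM in NPD26, NPD27 and NPD28 but at 1.82 CPM in NPD30, within its E12.5 range of 1.56 to 3.69 CPM. In the same order, the summed macrophage list was 4023, 4409, 1368 and 55.3 CPM. The other receptors that rose were P2rx4 and P2ry1, and P2ry1 was at 12.4 CPM in NPD30 and 8.24 to 15.1 CPM in the other P0 litters, above its E12.5 range of 2.59 to 5.68 CPM. By limma-voom 3 of the 11 passed and by DESeq2 8. Of 9 other genes linked to ATP release, which were the large-pore channels of the Calhm and Lrrc8 families and the transporter Abcc6, 6 were tested (Abcc6 among them) and 0 passed in edgeR, 0 had an unadjusted p under 0.05, and DESeq2 and limma-voom also called 0.

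In NPD30, where the leukocyte list was lowest of the P0 litters at 204 CPM and the neutrophil list was at 921 CPM, Gja1, Gjb5, Gjb2, Gjc1 and Panx3 each had their highest P0 value. Gja5 (0 reads) and Panx1 (10.5 CPM) had their lowest P0 value there, and Gja4 and Gjb6 lay between the other P0 litters. Other lists were also highest of the P0 litters in NPD30. These were the notochord (6935 CPM), osteoblast (715), hypertrophic cartilage (308), cartilage (7483) and smooth muscle and pericyte (412.5) lists. The part of any of these in the values of NPD30 was not tested. Without NPD30, Gja1, Gjb5 and Panx3 were still higher and Gja4, Gja5, Gjb2 and Gjc1 still lower at P0 at an adjusted p under 0.05.

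**Figure D4:**
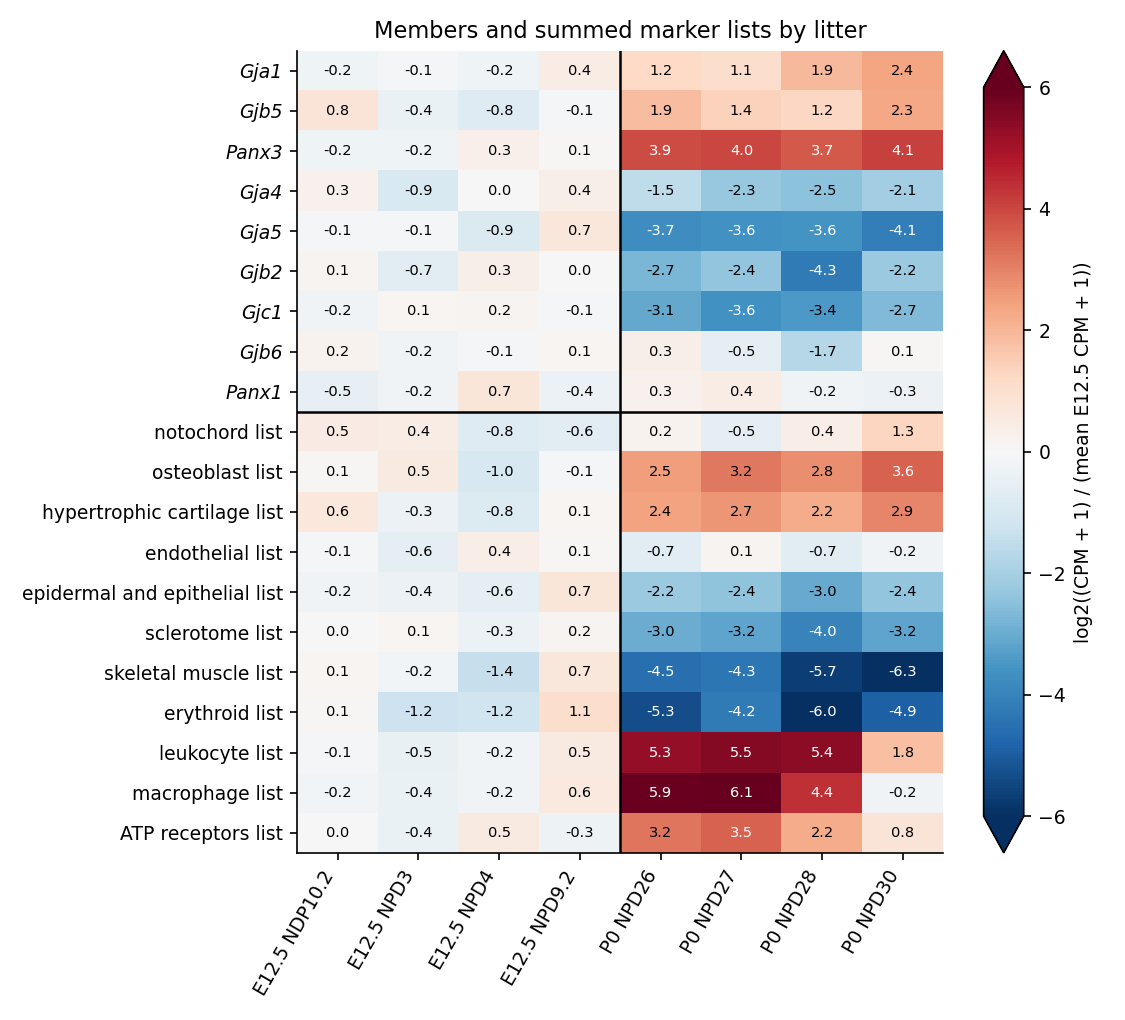
Each litter (columns) against the E12.5 mean for the 9 members and for summed lists of marker and receptor genes (rows), as log2 of the ratio after 1 CPM was added, from blue (lower) to red (higher). Panx3 is high in all P0 litters, as are the osteoblast and hypertrophic cartilage lists, whereas the macrophage list (55.3 CPM in NPD30 and 1368 to 4409 CPM in the other P0 litters) and the ATP receptors (84.8 CPM and 230 to 569 CPM) are near or closer to their E12.5 level in NPD30.

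For each member, the 3 genes whose log2 CPM followed it most closely over the 8 samples were found among 12688 genes with a mean log2 CPM of at least 2. Since the samples fall into the 2 stages and the match was the highest of many, the Pearson r is a description only. Gja1 was nearest to C1qtnf1 (r = 0.995), Ngef (0.991) and Adora2a (0.986), and C1qtnf1 was at 2.83 to 5.66 CPM at E12.5 and at 18.6, 13.1, 39.4 and 52.2 CPM in the P0 litters, the order of Gja1. Genes near Gjb5 included Tagln2 (0.991) and Izumo4 (0.989), and Panx3 was nearest to Calca (0.991), the gene of the peptide hormones calcitonin and CGRP, Ankrd40 (0.990) and Rasgrp1 (0.990). Among the genes that fell, Gjb2 was nearest to 9530082P21Rik (0.995), Sox10 (0.987), a transcription factor of neural crest and Schwann cells, and Igfbpl1 (0.986), and Gjc1 to Rnd3 (0.996), Tle1 (0.995) and St8sia2 (0.993). Gja5 was nearest to Fam210b (0.997), Rbm24 (0.992) and Adgrl2 (0.992), and Gja4 to Vps37d (0.983), Mmp15 (0.983) and Hoxd3os1 (0.982). The closest matches of the members that did not pass were weaker, Rpl32 for Gjb6 (0.967), then Galnt18 (0.951) and Gm10275 (0.95), and Gdpd1 for Panx1 (0.938), then Cadm1 (0.925) and Kpna3 (0.919).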

How the data were processed

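RNA-Seq libraries came from 8 samples of pooled litters, 4 per stage, whose labels give the stage and a litter name. The authors aligned reads to GRCm38 with STAR (version 2.4.0j in the submitters' processing notes), assigned them to Gencode genes with HTSeq and deposited raw counts per gene, without normalization. Rows that tally unassigned reads were left out of library sizes: reads on genes were 22.6% to 34.8% of all tallied and ambiguous reads 7.07% to 17.5%, highest in NPD9.2 and NDP10.2.

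The counts were tested here in R 4.3.3 with edgeR 4.0.16 (TMM, filterByExpr with a minimum count of 10 and a minimum total of 15, robust quasi-likelihood F-test, Benjamini-Hochberg adjustment over 15467 genes), in place of the study's DESeq2. A gene passed at an adjusted p under 0.05. Standard errors are the size of the log2 fold change divided by the square root of F, and 95% intervals use the t quantile with the fit's degrees of freedom. The method was tested on simulated data. Named were all members, up to 4 genes per pathway list by size of change among those that passed, and 3 genes most like each member. Some of these genes are not reported here. The members and lists were chosen with earlier results of these data known. Marker, pathway and likeness values are descriptions. Positions are from Gencode M21, a later annotation than that counted on. Alternatives were DESeq2 1.42.0, limma 3.58.1 (voom), other normalizations and filters, mitochondrial and hemoglobin genes left out, a test against a fold change of 2, and litters left out. P-values measure the spread between pooled litters.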

Additional observations from a re-analysis of the deposited data

How the results depend on the processing

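The 7 members that passed did so under DESeq2, limma-voom, both other normalizations, no filter, estimates that were not robust, library sizes without mitochondrial and hemoglobin genes, and each litter left out, always in the same direction. Over all genes tested, these settings called 15.2% (no filter) to 33.1% (DESeq2). A requirement of at least 10 counts in every sample left 4 members to test, of which 2 passed, since it removes genes near 0 at 1 stage. Of all 11719 genes left by it, 26.1% passed. Leaving out NDP10.2 and NPD9.2 together gave 6 members (Gja4 adjusted p = 0.0822). Over all genes, 2581 of 16971 tested (15.2%) passed there, against 4321 of 15467 (27.9%) with all litters. The test against a fold change of 2 gave 6 members (Gjb5 adjusted p = 0.0617) and 1928 genes, 12.5% of those tested. Leaving out 1 litter at a time gave log2 fold changes of 1.42 to 1.93 for Gja1, 1.89 to 2.77 for Gjb5 (highest adjusted p = 0.0431), 5.79 to 7.47 for Panx3, -4.81 to -3.23 for Gja4, -5.92 to -5.30 for Gja5, -3.26 to -2.62 for Gjb2 and -3.70 to -3.25 for Gjc1. The sign of the members that did not pass was not fixed: Panx1 went from -0.11 to 0.44 with a litter left out, was -0.080 with upper quartile normalization, which moved the median of all genes to -0.11, and was -0.31 without both E12.5 litters. Gjb6 went from -0.61 to 0.015 with a litter left out. The share of Gja1 in the connexins was 38.7% at E12.5 and 89.0% at P0 without division by length, and 30.7% and 83.8% with the median coding transcript length, which was added after the data were seen. No paired analysis was possible because the litter names are not shared between the stages. Depth limits Gja4, Gja5 and Panx3 most, with at most 6, 4 and 4 reads per litter at the lower stage.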
